A study of Mus musculus with 27 samples.

Results

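The comparison described here sets the 3 whole cell libraries labelled day 12 against the 3 whole cell libraries labelled day 0, which are 6 of the 27 libraries of a study of long non-coding RNAs and messenger RNAs in mouse embryonic stem cells. The cells were DTCM23/49 XY lines that carry a conditional allele of Dicer1, the gene of the enzyme that cuts microRNA precursors, and they were kept on gelatin in medium with serum and leukemia inhibitory factor (LIF), with no feeder layer stated. Day 0 is the state before induction, and the days after it count from treatment with 800 nM 4-hydroxytamoxifen, which deletes the RNase III domain of Dicer. By the protocol, treated cells were picked as Dicer-deficient colonies and passaged until day 12, while control cells received ethanol; no library after day 0 is labelled as an ethanol control. The remaining libraries are whole cells at days 4, 8 and 10 (3 each) and nuclear and cytoplasmic fractions at days 0 and 12 (3 each). The series design calls the 3 samples of each group biological replicates but does not say how they were derived. The p-values below therefore measure only the spread between such samples, in the main fit pooled over the 15 whole cell libraries of 5 days.

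Mouse embryonic stem cells renew themselves under LIF and serum as a mixture of naive cells, which resemble the inner cell mass, and cells that drift towards the primed state of the later epiblast. Fgf and Erk signalling favours the primed side, whereas Klf4, Tbx3 and their partners hold the naive side, and Wnt, Nodal and Fgf8 guide the first steps towards mesoderm. The microRNAs of the miR-290 and miR-302 clusters dominate in these cells, share a seed and repress cell cycle inhibitors, so loss of Dicer releases their targets.

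Dicer1 was at 15, 16 and 17.9 fragments per kilobase of transcript and unit of library depth (FPKM, a level corrected for length and depth) in day 0 replicates 1 to 3, and at 16.7, 13.8 and 13.4 FPKM in the day 12 replicates. The values of both groups overlapped. The difference was -0.15 ± 0.16 on the scale of log2(FPKM + 0.5), with an adjusted p of 0.58 from limma and an exact two-sided permutation p of 0.3, where 3 against 3 samples cannot go below 0.1. At days 4, 8 and 10 the whole cell means were 1.41, 1.71 and 1.83 FPKM. In the fractions, Dicer1 went from 22.5 ± 1.18 to 3.06 ± 0.366 FPKM in the cytoplasm and from 13.3 ± 4.75 to 4.2 ± 1.11 FPKM in the nucleus (means ± SD, n = 3). The whole cell libraries labelled day 12 therefore carried day 0 levels of Dicer1, against their label, and the changes below are given as differences between libraries so labelled, with no tie to Dicer loss.

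Before the results, 3 observations on the libraries bear on every value. The spacing of the lowest FPKM values, which shrinks as more reads are counted, put the day 0 whole cell libraries at 3.22 times the depth of the day 12 libraries on average. This is an estimate from the commonest ratio of low values to those of day 12 replicate 3. That ratio held for 11.8% to 15.5% of the genes used at day 0. In day 12 replicates 1 and 2 it held for 29.9% and 28.5%. Processed pseudogenes, which are inserted copies of spliced messages, reached 0.5 FPKM for 287 to 366 genes in the day 0 whole cell libraries and for 599 to 737 in the other 24 libraries. Gapdh, a glycolytic enzyme with many such copies, was at 744, 759 and 891 FPKM at day 0 and 79.6, 81 and 77.3 FPKM at day 12, and from 31.5 to 81.6 FPKM in all 24 other libraries; it was singled out after its values were seen. Its part, and that of depth, in the differences below was not tested. Pseudogenes and genes with a near-identical copy were left out of the genes described (3204 of 15991 genes tested).

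Of all 15991 genes tested, 1636 were higher at day 12 (10.2%) and 534 lower (3.34%) at an adjusted p under 0.05. Among the 12787 genes kept, 1008 were higher (7.88%) and 282 lower (2.21%), or 10.1% in either direction, with a median change of 0.05. About as many of these changes lay under 0.5 on the log2 scale as above it, namely 500 of the 1008 rises and 146 of the 282 falls, while 58 rises and 32 falls reached 1. The 3 day 12 values lay above all 3 day 0 values for 26.5% of the genes kept and below them for 13.9%. The balance between directions moved with the scaling: 75.4% of all calls were rises on the deposited values, against 56.2% after the libraries were scaled by median ratios and 45.5% after quantile normalization, which shifted the median of all genes tested from 0.06 to -0.05. Leaving out day 0 replicate 2 left 377 of the kept genes called higher and 83 lower.

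**Figure D1:**
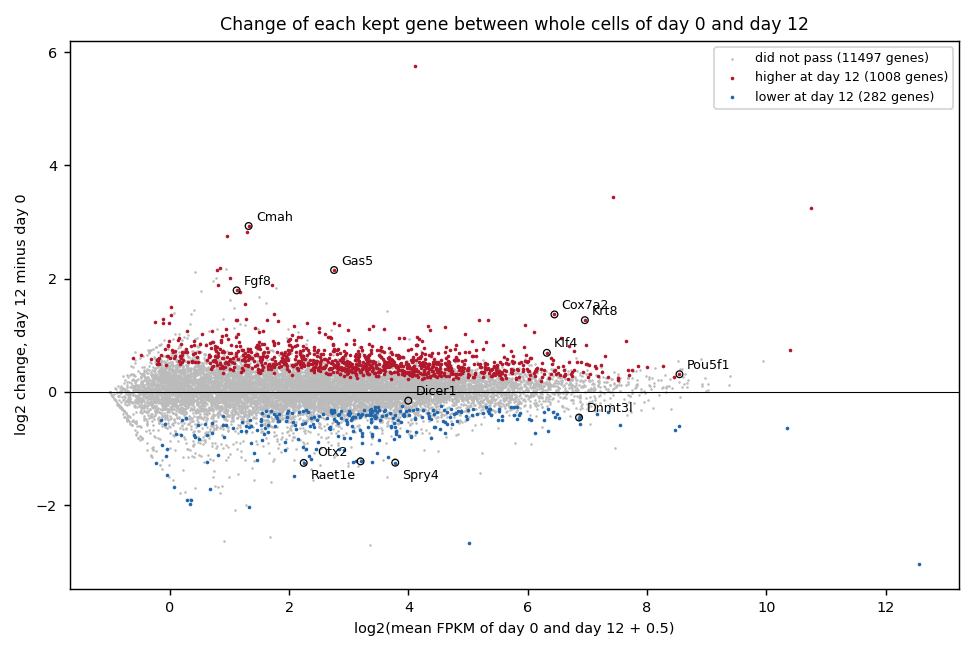
Log2 difference between whole cell day 12 and day 0 (y axis) against log2 of the mean FPKM of both days + 0.5 (x axis) for the 12787 genes kept, each point a gene, with genes called higher in red, genes called lower in blue and some named genes circled. The 1008 genes called higher outnumber the 282 called lower, and 58 rises and 32 falls reach 1; the points farthest from 0 are predicted and small RNA genes, which carry no circle.

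The core factors of pluripotency were close to level. Nanog had a difference of 0.20 (adjusted p = 0.374) and Sox2 of 0.05 (0.761). Pou5f1, which encodes Oct4, was at 350.4, 325 and 322 FPKM at day 0 and 373, 441 and 425 FPKM at day 12. It rose by 0.31 ± 0.09 (SE; adjusted p = 0.0352), but the call was lost after scaling by median ratios (0.198) and without day 12 replicate 2 (0.136), day 12 replicate 3 (0.116), day 0 replicate 2 (0.126) and day 0 replicate 3 (0.109). These are bulk samples, in which fewer cells of a type and less RNA per cell cannot be told apart.

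Some naive pluripotency factors rose. Of 17 such genes tested and kept, 5 rose and 0 fell. Their median change was 0.15, and 0.20 at day 10 against the same day 0 libraries. Counting members with near-identical copies too, 6 of 22 were higher and 1 lower at day 12. Over all genes kept 7.88% were higher and 2.21% lower, and each list count below stands beside these shares. Klf4, a transcription factor downstream of LIF, was at 64.6, 53.6 and 64.2 FPKM at day 0 and 99.7, 100.1 and 94.2 FPKM at day 12. Every day 12 library lay above every day 0 library, and Klf4 rose by 0.69 ± 0.09 (SE; adjusted p = 0.000224). At days 4, 8 and 10 its means were 62.9, 60 and 53.7 FPKM. In the day 0 fractions Klf4 was higher than in the day 0 whole cells, at 83.9 FPKM in the cytoplasm and 91.2 FPKM in the nucleus. Tbx3, a T-box factor of the same network, had 8.69, 6.47 and 7.3 FPKM at day 0 and 12.2, 10.3 and 11.1 FPKM at day 12 and rose by 0.56 ± 0.11 (SE; adjusted p = 0.00531). Unlike Klf4, its means at days 4, 8 and 10 were 9.15, 11.8 and 11.5 FPKM, so days 8 and 10 stood near day 12. Klf5, a relative of Klf4, rose by 0.55, Tcl1, an activator of Akt, by 0.46 and Prdm14, a repressor of Fgf receptor genes, by 0.35. The calls of Klf5 were lost without day 12 replicate 2 (0.0777) and day 0 replicate 2 (0.0866), those of Tcl1 without any 1 of the 6 libraries (adjusted p from 0.0515 to 0.201) and those of Prdm14 without day 12 replicate 1 (0.113), day 12 replicate 3 (0.103), day 0 replicate 1 (0.0788) and day 0 replicate 2 (0.148). With 1 library left out, the number of members called higher was 2 to 4 (fewest without day 0 replicate 2). The other members kept stayed short of the threshold in both directions, from Tfcp2l1 at 0.51 (adjusted p = 0.0628) to Fbxo15 at -0.26 (0.154).

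More primed genes fell than rose. Of 15 tested and kept, 6 fell (Otx2, Dnmt3a, Fgf5, Dusp6 and Lef1 among them), 1 rose (Fgf8) and 8 were not called, with a median of -0.44. At day 10, against the same day 0 libraries, their median was -0.35. Otx2, a homeobox factor that drives the exit from the naive state, stands at chr14:48657677-48673819 in the mouse build GRCm38. It was at 13.7, 12 and 11.5 FPKM at day 0 and 5.16, 4.83 and 4.97 FPKM at day 12. Both groups were tight and did not overlap, and Otx2 fell by 1.23 ± 0.10 (SE; adjusted p = 2.87e-06). The day 0 values lay above all 24 other libraries (2.37 to 10.2 FPKM), and the means at days 4, 8 and 10 were 9.39, 4.94 and 2.69 FPKM. Fgf5, the growth factor that marks the epiblast, was low throughout, at 1.24, 1.3 and 1.35 FPKM at day 0 and 0.412, 0.579 and 0.542 FPKM at day 12, and fell by 0.83 ± 0.17 (SE; adjusted p = 0.00646). Lef1, a nuclear partner of beta-catenin, fell by 0.58, a call that was lost without day 12 replicate 1 (0.0847), day 12 replicate 3 (0.125), day 0 replicate 2 (0.122) and day 0 replicate 3 (0.0908). The Dusp6 call was lost without day 0 replicate 2 (0.0565). Pou3f1, the primed factor Oct6, was at -0.45 and was not called (adjusted p = 0.0737). With 1 library left out the number of members called lower was 4 to 9 (fewest without day 0 replicate 2).

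Enzymes that place DNA methylation anew were lower. Dnmt3a, a de novo methyltransferase, was at 12.8, 15 and 14.4 FPKM at day 0 and 7.64, 7.93 and 7.15 FPKM at day 12, with no overlap, and fell by 0.85 ± 0.13 (SE; adjusted p = 0.000747). The day 0 fractions already held less Dnmt3a, at 7.58 FPKM in the cytoplasm and 3.97 FPKM in the nucleus. Dnmt3l, its catalytically inactive partner, was at 132, 131 and 138 FPKM at day 0 and 92.8, 102 and 97.8 FPKM at day 12 and fell by 0.45 ± 0.06 (SE; adjusted p = 0.000416). The related enzyme Dnmt3b was at 111, 149 and 142 FPKM and 71.4, 73.9 and 66.9 FPKM and fell by 0.91, but it has a near-identical copy elsewhere in the genome and its value is uncertain. Dnmt1, which maintains methylation at replication, and its partner Uhrf1 were at 0.01 and 0.02 and were not called. Tet1 and Tet2, which oxidize methylcytosine, were at -0.38 and -0.35 (adjusted p = 0.518 and 0.503). Of the 6 genes of this group that were kept, 2 fell and 0 rose.

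Feedback genes of the Fgf and Erk pathway held 4 falls and 0 rises among 19 tested. Spry4, an inhibitor of receptor tyrosine kinase signalling that Erk itself induces, was at 18.8, 18.9 and 18.7 FPKM at day 0 and 7.75, 8.23 and 6.93 FPKM at day 12. It fell by 1.25 ± 0.16 (SE; adjusted p = 0.000159), and at days 4, 8 and 10 its means of 21, 16.3 and 21.7 FPKM stood near the day 0 whole cells. The day 0 fractions stood near the day 12 whole cells instead, with Spry4 means of 8.05 FPKM in the cytoplasm and 5.58 FPKM in the nucleus. Dusp6, the phosphatase that switches Erk off, fell by 0.73 ± 0.16 (SE; adjusted p = 0.0101) from 24.9, 33.5 and 31.8 to 17.6, 20.3 and 15.9 FPKM. Its day 0 means in the fractions were 16.3 FPKM in the cytoplasm and 15.1 FPKM in the nucleus. Myc, a growth factor-responsive transcription factor, fell by 0.77, and Spred1, a relative of the Sprouty proteins, by 0.32. The call of Dusp6 was lost without day 0 replicate 2 (0.0565), that of Myc without day 12 replicate 3 (0.051) and day 0 replicate 2 (0.0598) and that of Spred1 without day 12 replicate 2 (0.0751), day 12 replicate 3 (0.0628) and day 0 replicate 2 (0.0914). The members called lower numbered 1 to 4 (fewest without day 0 replicate 2) with 1 library left out. Other feedback genes were not called: Spry2 was at -0.17, Etv4 at -0.12, Etv5 at -0.28, Egr1 at 0.09 and Fos at 0.68 (adjusted p from 0.0955 to 0.818).

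**Figure D2:**
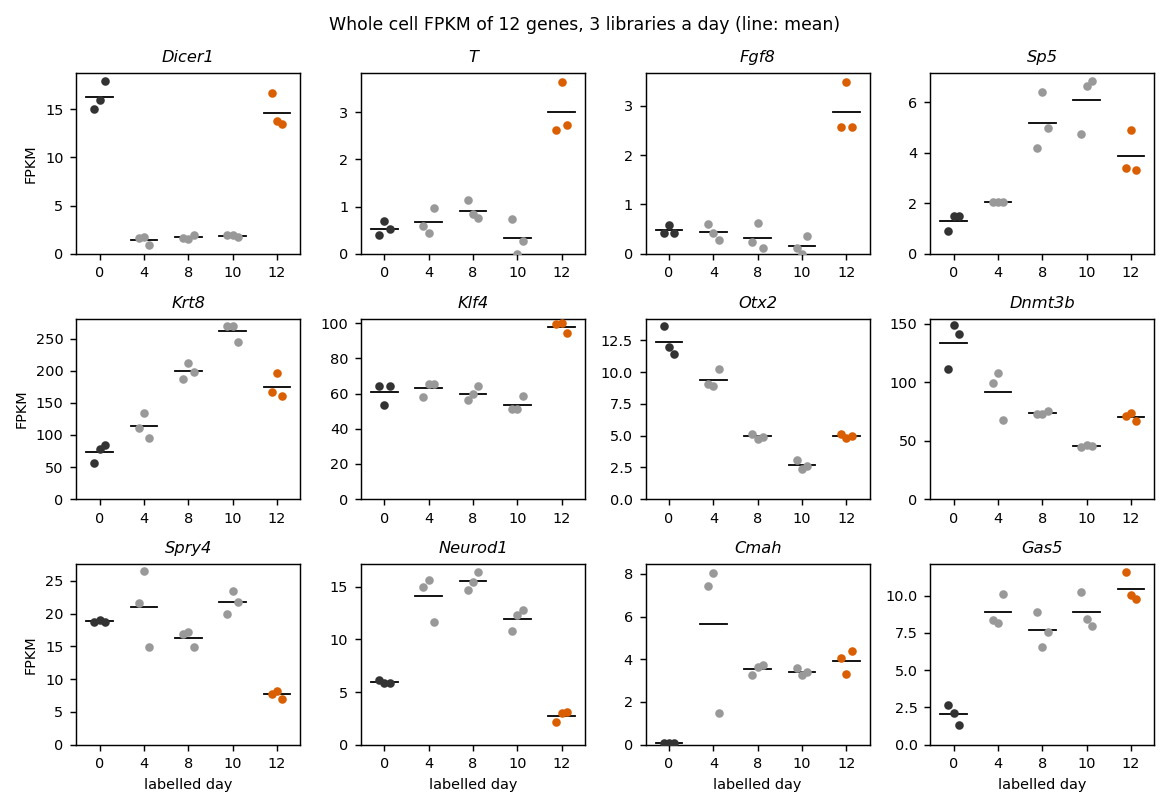
FPKM of 12 genes (y axes, linear from 0) in each whole cell library by labelled day (x axes), each point a library and each line the mean of 3. T and Fgf8 are high at day 12 alone, Spry4 is low at day 12 alone, Cmah and Gas5 are low at day 0 alone, and Dicer1 at day 12 overlaps its day 0 values.

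Genes of the primitive streak, where mesoderm forms, included T and Fgf8, which both rose by over 1 on the log2 scale. T, the T-box factor Brachyury, lies at chr17:8434423-8442496 (GRCm38) on the forward strand. It was at 0.387, 0.685 and 0.515 FPKM at day 0 and 2.62, 3.65 and 2.73 FPKM at day 12, and at 0.584, 0.436 and 0.973 FPKM at day 4, 1.13, 0.835 and 0.763 FPKM at day 8 and 0.728, 0 and 0.27 FPKM at day 10. Only the day 12 libraries exceeded 2 FPKM among whole cells, and T rose by 1.76 ± 0.28 (SE; adjusted p = 0.000993). In the day 0 fractions T was at 2.25 ± 1.92 FPKM in the nucleus and 1.55 ± 0.438 FPKM in the cytoplasm (means ± SD, n = 3). Fgf8, a growth factor of the streak at chr19:45736798-45742915, was at 0.415, 0.587 and 0.41 FPKM at day 0 and 2.58, 3.48 and 2.57 FPKM at day 12. It rose by 1.79 ± 0.25 (SE; adjusted p = 0.000345) and was also above days 4, 8 and 10 (adjusted p = 0.0009, 5.52e-05 and 7.38e-06), where 7.44%, 16.7% and 20.6% of all genes tested were higher at day 12. The day 0 fractions held Fgf8 at 2.62 ± 2.03 FPKM in the nucleus and 1.47 ± 0.444 FPKM in the cytoplasm (means ± SD). Sp5, a zinc finger factor that Wnt signalling induces, was at 0.888, 1.51 and 1.5 FPKM at day 0 and 3.37, 4.88 and 3.3 FPKM at day 12 and rose by 1.28 ± 0.20 (SE; adjusted p = 0.000825). Its means at days 4, 8 and 10 were 2.06, 5.18 and 6.08 FPKM, so that days 8 and 10 stood above day 12.

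The promoter windows of T and Sp5 are shown because both genes are known targets of beta-catenin and its Tcf and Lef partners. They run from 250 bases before to 50 bases after the RefSeq start (GRCm38.p6), with the core motif CTTTGA, or its reverse complement TCAAAG, in capitals.
T, chr17:8434173-8434472, forward strand: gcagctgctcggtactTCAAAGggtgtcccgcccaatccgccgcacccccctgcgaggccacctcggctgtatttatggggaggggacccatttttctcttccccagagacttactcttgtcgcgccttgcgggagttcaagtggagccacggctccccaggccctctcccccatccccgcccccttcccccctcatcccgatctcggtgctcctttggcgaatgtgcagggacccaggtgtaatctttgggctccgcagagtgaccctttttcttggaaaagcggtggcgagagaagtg
Sp5, chr2:70474673-70474972, forward strand: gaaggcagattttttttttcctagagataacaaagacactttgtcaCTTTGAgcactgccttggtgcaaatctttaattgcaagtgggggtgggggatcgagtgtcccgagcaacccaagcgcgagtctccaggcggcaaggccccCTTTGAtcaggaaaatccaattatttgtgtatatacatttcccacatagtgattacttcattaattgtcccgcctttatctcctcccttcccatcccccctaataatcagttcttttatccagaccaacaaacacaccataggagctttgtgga
The T window held 1 match, at -234 from the start, and the Sp5 window held 2, at -204 and -104, whereas 16.0% of all 32851 windows held at least 1 on either strand. The windows of Wnt3, Otx2, Dnmt3a and Krt8 were scanned as well and held no match. A match is a description of the letters, not a site. The Wnt list as a whole did not move in 1 direction: of 13 members kept, T and Sp5 rose, Lef1 fell by 0.58 and 10 were not called, with a median of 0.00. The Lef1 call was lost without day 12 replicate 1 (0.0847), day 12 replicate 3 (0.125), day 0 replicate 2 (0.122) and day 0 replicate 3 (0.0908). Axin2, the feedback inhibitor most often used to read out this pathway, was at 1.85 FPKM at day 0 and 1.87 FPKM at day 12 (adjusted p = 1).

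Other markers of mesoderm did not share the rise of T. Of 9 mesoderm markers tested, T alone was called, and Mixl1, Eomes, Tbx6 and Gsc were at 0.13, 0.21, 0.18 and 0.54 (adjusted p from 0.155 to 0.72). Over all genes kept, 10.1% were called in either direction. The summed level of the list was 6.04 to 7.42 FPKM at day 0 and 8.79 to 11.0 FPKM at day 12, and 3 of its 10 members were under 0.5 FPKM in all 6 libraries. Nodal and BMP targets held 3 rises and 0 falls among 11 kept. Their median change was 0.18, and 0.63 at day 10 against the same day 0 libraries. Smad6, an inhibitor of BMP signalling, rose by 0.70 and the ligand Bmp4 by 0.63. Calls were lost without day 12 replicate 3 (0.0522) and day 0 replicate 2 (0.0541) for Smad6 and without day 12 replicate 2 (0.122), day 12 replicate 3 (0.0857), day 0 replicate 1 (0.105), day 0 replicate 2 (0.0844) and day 0 replicate 3 (0.0516) for Bmp4, and the members called higher numbered 0 to 2 (fewest without day 0 replicate 2) with 1 library left out, and with quantile normalization 1 member was called in each direction. The Nodal antagonists Lefty1 and Lefty2, near-identical to each other, were at 0.34 and 0.26 (adjusted p = 0.0358 and 0.156), and the Lefty1 call was lost without any 1 of the 6 libraries (adjusted p from 0.0508 to 0.164).

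Krt8 and Krt19, keratins of simple epithelium, were higher at day 12. Krt8 was at 56.1, 78.1 and 85.1 FPKM at day 0 and 167, 196 and 160.4 FPKM at day 12 and rose by 1.27 ± 0.15 (SE; adjusted p = 0.000106). Its means were already 114, 199 and 262 FPKM at days 4, 8 and 10, so day 0 was the lowest of the 5 days. Krt19 was at 17.3, 23.2 and 22.5 FPKM at day 0 and 48.1, 50.2 and 54.6 FPKM at day 12 and rose by 1.27 ± 0.14 (SE; adjusted p = 4.61e-05). Krt18, the filament partner of Krt8, went from 75.5 to 168 FPKM, but it has near-identical copies and is uncertain. In the list of 9 trophoblast markers kept, Krt8 and Tfap2c, an AP-2 factor also active in germ cells, were called, with Tfap2c at 0.44; its call was lost without day 12 replicate 1 (0.0759), day 12 replicate 3 (0.0529) and day 0 replicate 2 (0.0808). The defining trophoblast genes were low: Cdx2 was at 0.329 FPKM and Elf5 at 0.0295 FPKM at day 12, and Prl3d1 was listed at 0 in all 6 libraries. The summed level of all 12 markers, 151 to 201 FPKM at day 0 and 370 to 412 FPKM at day 12, was mostly keratin.

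Contractile and mesenchymal genes rose as well. Of 9 fibroblast markers kept, 5 rose and 0 fell, with a median of 0.61. At day 10, against the same day 0 libraries, their median was 1.29. Vim, the intermediate filament of mesenchymal cells, was at 74.5, 83.3 and 88.2 FPKM at day 0 and 126, 151 and 128 FPKM at day 12 and rose by 0.71 ± 0.11 (SE; adjusted p = 0.000763). Tagln, an actin-binding protein of smooth muscle, was at 28.5, 38.9 and 35.6 FPKM and 57.9, 67.8 and 56.5 FPKM and rose by 0.82 ± 0.17 (SE; adjusted p = 0.00574). Acta2, smooth muscle actin, rose by 0.73, and the collagen genes Col1a1 and Col1a2 rose by 0.86 and 0.61. The calls of Vim, Tagln, Acta2 and Col1a1 held without any 1 of the 6 libraries. The summed level of the 12 markers was 128 to 156 FPKM at day 0 and 227 to 265 FPKM at day 12, while Lum was listed at 0 in all 6 libraries and Col3a1 and Postn, typical of fibroblasts, were at 0.0358 and 0.0597 FPKM at day 12. Sparc, a matrix protein of endoderm and mesenchyme, was at 0.52, a call lost without day 12 replicate 2 (0.0655), day 12 replicate 3 (0.0616), day 0 replicate 2 (0.0603) and day 0 replicate 3 (0.0618). The other defining endoderm genes were low: Gata4 was at 0.457 FPKM, Gata6 at 0.157 FPKM, and Afp and Ttr were listed at 0 at day 12.

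Retinoic acid response genes held 4 rises and 1 fall among 11 kept, with a median of 0.33. Their median at day 10, against the same day 0 libraries, was 0.62. Stra8, a gene that retinoic acid induces before meiosis, was at 1.2, 0.905 and 0.757 FPKM at day 0 and 2, 2.21 and 3.18 FPKM at day 12 and rose by 1.02 ± 0.15 (SE; adjusted p = 0.000701). The retinoic acid carrier Crabp1 was at 0.64 and the retinal reductase Dhrs3 at 0.64, with calls lost without day 12 replicate 2 (0.136), day 12 replicate 3 (0.112), day 0 replicate 1 (0.0761), day 0 replicate 2 (0.156) and day 0 replicate 3 (0.0757) and without day 12 replicate 2 (0.141), day 12 replicate 3 (0.11), day 0 replicate 1 (0.0624), day 0 replicate 2 (0.154) and day 0 replicate 3 (0.0982). Rarg, a retinoic acid receptor, fell by 0.54. The targets used most as readouts, Cyp26a1 and Rarb, were at 0.669 and 0.0738 FPKM at day 12 and were not called (adjusted p = 0.233 and 0.835).

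**Figure D3:**
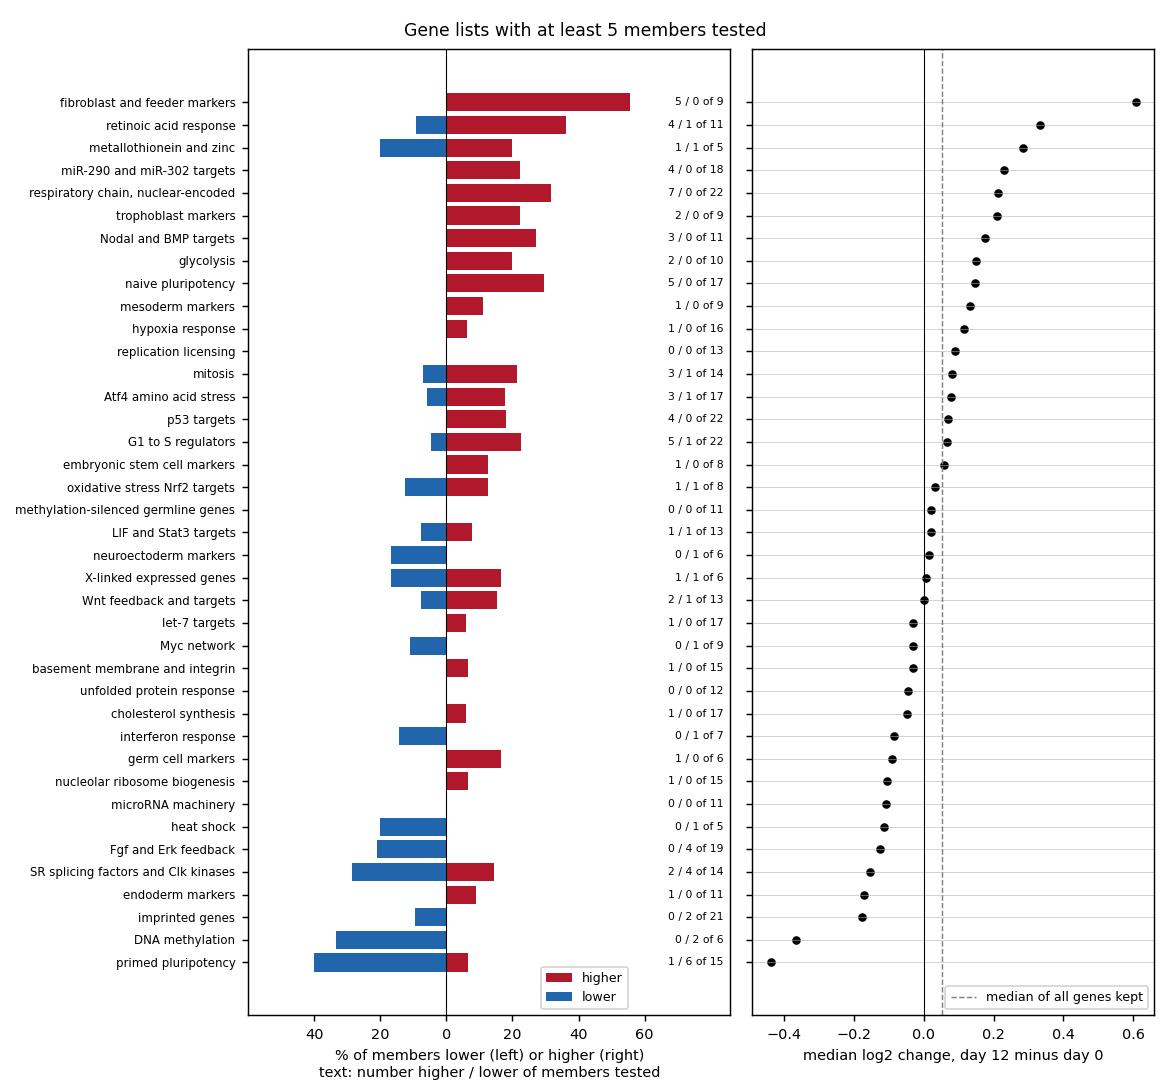
Left, the percentage of kept members of each gene list (rows, lists with at least 5 members tested) called higher (red, to the right) or lower (blue, to the left), with the numbers beside them; right, the median log2 difference between day 12 and day 0 of each list, with a dashed line at the median of all genes kept, 0.05. Fibroblast markers stand at the top, with 5 of 9 higher, and primed genes at the bottom, with 6 of 15 lower.

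Some genes of energy metabolism were higher at day 12. Among 22 nuclear-encoded genes of the respiratory chain that were kept, 7 rose and 0 fell, with a median of 0.21. Of all genes kept, 7.88% were higher and 2.21% lower. Cox7a2, a subunit of cytochrome c oxidase, was at 51.7, 52.6 and 41 FPKM at day 0 and 116, 126 and 134 FPKM at day 12 and rose by 1.37 ± 0.21 (SE; adjusted p = 0.000752). Its means at days 4, 8 and 10 were 184, 125 and 111 FPKM, which leaves day 0 as the lowest. The complex I subunits Ndufb8 and Ndufv1 rose by 0.79 and 0.63, and the complex III subunit Uqcrc1 by 0.43. Sdhc of complex II was at 0.46, a call lost without day 12 replicate 1 (0.057), day 12 replicate 2 (0.0648), day 12 replicate 3 (0.0959), day 0 replicate 2 (0.108) and day 0 replicate 3 (0.0866). In glycolysis 2 of 10 kept genes rose, namely Aldoc by 0.57 and Eno2 by 0.68, the latter lost without day 0 replicate 2 (0.0751) and day 0 replicate 3 (0.057); 8 other glycolytic genes, Pkm and Ldha among them, have near-identical copies and were not counted.

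Cell cycle and stress genes showed scattered changes. Cdkn1a, the cyclin-dependent kinase inhibitor p21, was at 28.7, 23.6 and 25.7 FPKM at day 0 and 41.6, 44.4 and 44.1 FPKM at day 12 and rose by 0.73 ± 0.15 (SE; adjusted p = 0.00673); its means at days 8 and 10 were 89.4 and 133 FPKM. Ccne2, an S-phase cyclin, fell by 0.65 ± 0.12 (SE; adjusted p = 0.00309), whereas its relative Ccne1 was at -0.08 (adjusted p = 0.749). Among 22 regulators of the step from G1 to S, 5 rose and 1 fell, and with 1 library left out the number called higher was 3 to 4 (fewest without day 12 replicate 3, day 0 replicate 1 and day 0 replicate 2). Of 22 p53 targets kept, 4 rose and 0 fell with a median of 0.07, and their median at day 10 against day 0 was 0.66. Mdm2 and Ccng1, among the most direct targets, were at -0.01 and -0.05 at day 12. Beside Cdkn1a the rises were Bbc3, Phlda3 and Btg2, with differences of 0.54, 0.44 and 0.32. These calls were lost without day 12 replicate 1 (0.0577), day 12 replicate 2 (0.0648) and day 0 replicate 2 (0.0697) for Bbc3, without day 12 replicate 2 (0.0645), day 12 replicate 3 (0.0699), day 0 replicate 1 (0.0616) and day 0 replicate 2 (0.0641) for Phlda3 and without day 12 replicate 1 (0.0987), day 12 replicate 3 (0.104), day 0 replicate 1 (0.108) and day 0 replicate 3 (0.0836) for Btg2. Replication licensing factors, the unfolded protein response and the microRNA machinery had no gene past the limma threshold among 13, 12 and 11 kept; 1, 3 and 2 of them had an unadjusted p under 0.05.

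Splicing factors of the SR family, which bind exonic enhancers, held 4 falls and 2 rises among 14 kept genes of the SR and Clk families, and 2 falls and 1 rise without day 0 replicate 2. Srsf1 was at 77.2, 78.2 and 71.2 FPKM at day 0 and 54.4, 52.8 and 54.3 FPKM at day 12 and fell by 0.48 ± 0.07 (SE; adjusted p = 0.000378). Tra2b, which promotes exon inclusion, fell by 0.41, a call lost without day 0 replicate 2 (0.0508). Srsf9 rose by 0.48, and so did Clk3, a kinase of SR proteins, by 0.49, with the Clk3 call lost without day 0 replicate 2 (0.0649). Among 21 imprinted genes, Rian, a maternally expressed long non-coding RNA, fell by 0.80 ± 0.15 (SE; adjusted p = 0.00314) and H19, another, by 0.48; the H19 call was lost without day 12 replicate 2 (0.0918), day 12 replicate 3 (0.0726), day 0 replicate 2 (0.122) and day 0 replicate 3 (0.101). The nuclear RNAs Malat1 and Neat1 were at 1.01 and 0.24 and were not called (adjusted p = 0.141 and 0.511).

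Genes with a site for the miR-290 and miR-302 families were counted as well. The mature forms are shown with the shared seed (bases 2 to 8) in capitals, from RefSeq with the build GRCm38.p6.
miR-291a-3p: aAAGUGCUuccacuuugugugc
miR-294-3p: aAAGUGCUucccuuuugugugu
miR-302b-3p: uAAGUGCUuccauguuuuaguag
Genes whose annotated 3′ untranslated region holds the 8-base site AGCACTTA, which pairs with this seed, numbered 391 among kept protein-coding genes tested; 17 were higher and 17 lower at day 12 (4.35% each), with a median of -0.03. Of the 10881 such genes without a site, 8.74% were higher and 2.16% lower, with a median of 0.07. The genes with a site have longer 3′ untranslated regions (median 2900 bases against 1261), and the part of length in this difference was not tested. At day 10, measured against the same day 0 libraries, 48.3% of the genes with a site and 28.9% of those without were higher. Of 18 known targets kept, 4 were called higher at day 12, Cdkn1a, Rhoc, Mbd2 and Akt1, with differences of 0.73, 0.51, 0.35 and 0.28. Calls were lost without day 12 replicate 1 (0.0532), day 12 replicate 2 (0.06) and day 0 replicate 2 (0.0814) for the GTPase gene Rhoc, without any 1 of the 6 libraries (adjusted p from 0.0606 to 0.152) for Mbd2, which reads methylated DNA, and without day 12 replicate 1 (0.0765), day 12 replicate 2 (0.0839), day 0 replicate 1 (0.0865) and day 0 replicate 2 (0.0925) for the kinase gene Akt1, and 1 of the 4 held after scaling by median ratios. Hmga2, a chromatin protein repressed by let-7, went from 2.6, 3.26 and 2.94 to 5.05, 5.47 and 4.97 FPKM and rose by 0.73 ± 0.11 (SE; adjusted p = 0.000515), the 1 call among 17 let-7 targets. Over all genes kept, 7.88% were higher.

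Predicted and small RNA genes aside, the 2 largest rises among genes of at least 2 FPKM belong to genes that were low in the day 0 whole cell libraries and higher in the whole cell libraries of every later day. Cmah, which makes N-glycolylneuraminic acid from another sialic acid, was at 0.0748, 0.0839 and 0.0726 FPKM at day 0 and 4.06, 3.31 and 4.38 FPKM at day 12 and rose by 2.93 ± 0.40 (SE; adjusted p = 0.000279). It was at 5.66, 3.54 and 3.42 FPKM at days 4, 8 and 10 and at 13.3 FPKM in the cytoplasm and 21.2 FPKM in the nucleus at day 0. Gas5, a non-coding host gene of small nucleolar RNAs, was at 2.62, 2.12 and 1.32 FPKM at day 0 and 11.6, 10 and 9.78 FPKM at day 12 and rose by 2.15 ± 0.18 (SE; adjusted p = 4.08e-06). It was at 8.88, 7.68 and 8.89 FPKM on the days between and at 7.25 FPKM in the day 0 cytoplasm. Both genes overlap annotated genes on the other strand, and 14 of the 30 genes with the largest rises and falls overlap another gene; the libraries were directional, but whether counting used strand is not given in the sources used here. The other large rises were Fam221b at 2.01, the olfactory receptor gene Olfr613 at 1.90, Platr25 at 1.55, Caps2 at 1.37, the neuropeptide gene Npb at 1.28, the septin gene Sept4 at 1.27 and Cited1, a transcriptional coactivator on the X chromosome, at 1.25. In Fam221b, Olfr613, Platr25, Sept4 and Cited1, as in Cmah and Gas5, the day 0 whole cell libraries lay below all 24 others. The calls of Caps2 were lost without day 12 replicate 3 (0.0516), day 0 replicate 2 (0.064) and day 0 replicate 3 (0.0557) and those of Npb without day 12 replicate 2 (0.0659) and day 0 replicate 3 (0.0545).

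Over the 12787 genes kept, the 3 day 0 whole cell libraries lay outside the range of all 24 other libraries for 183 genes, 144 of them below. The 3 day 12 whole cell libraries lay outside the range of their 24 others for 311 genes, 223 of them above. Fgf8 in the day 12 libraries, at 2.58, 3.48 and 2.57 FPKM, compares with 0 to 4.14 FPKM in the others, and T, at 2.62, 3.65 and 2.73 FPKM, with 0 to 4.06 FPKM. Spry4, at 7.75, 8.23 and 6.93 FPKM, compares with 4.1 to 28 FPKM.

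Among the largest falls, Raet1e, a ligand of the receptor NKG2D and a member of a multigene family, was at 6.88, 6.02 and 5.64 FPKM at day 0 and 2.21, 2.23 and 2.44 FPKM at day 12 and fell by 1.25 ± 0.17 (SE; adjusted p = 0.000349). Raet1e overlaps 9 annotated genes, Raet1d among them, and was not checked for near-identity with those. Neurod1, a helix-loop-helix factor of neurons, was at 6.12, 5.88 and 5.87 FPKM at day 0 and 2.1, 2.97 and 3.11 FPKM at day 12. It fell by 1.02 ± 0.13 (SE; adjusted p = 0.000226), and its means at days 4, 8 and 10 were 14.1, 15.5 and 12 FPKM, so day 12 was the lowest of the 5 days. Gc, the vitamin D-binding protein, was at 4.01, 3.11 and 2.73 FPKM at day 0 and 0.498, 1.6 and 1.58 FPKM at day 12 and fell (adjusted p = 0.00537). The planar polarity gene Prickle3 was at -1.23, with 15.8, 13.4 and 13.5 FPKM at day 0 against 2.29 to 6.58 FPKM in all 24 other libraries. The nucleoporin gene Nup35 was at -1.22, the WASH complex gene Washc4 at -1.15, Arxes2 at -1.08, the zinc finger gene Zfp936 at -1.03 and the non-coding R74862 at -1.01; in Nup35 and R74862 too the day 0 whole cell libraries lay above all 24 others. Ncoa4, which delivers ferritin for breakdown, was at -1.24, the metal transporter gene Slc39a14 at -1.01, Zfp955a at -1.03 and CN725425 at -1.08. Those 4 calls were lost without day 12 replicate 1 (0.0509), day 12 replicate 2 (0.0826), day 12 replicate 3 (0.0791), day 0 replicate 2 (0.105) and day 0 replicate 3 (0.0787) for Ncoa4, without day 12 replicate 2 (0.0583), day 12 replicate 3 (0.0616), day 0 replicate 2 (0.0907) and day 0 replicate 3 (0.0538) for Slc39a14, without day 12 replicate 2 (0.0629), day 12 replicate 3 (0.0885), day 0 replicate 2 (0.0851) and day 0 replicate 3 (0.0536) for Zfp955a and without day 12 replicate 1 (0.071), day 12 replicate 3 (0.0819), day 0 replicate 2 (0.0949) and day 0 replicate 3 (0.0559) for CN725425.

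Differences went with base composition and transcript length. In the lowest 20% of kept protein-coding genes by GC content (31.0% to 44.5%), 2.39% were higher and 6.47% lower, and in the highest 20% (56.3% to 76.5%), 14.4% were higher and 0.487% lower. By length of the longest transcript, the median difference was 0.21 between 1000 and 2000 bases and -0.11 above 8000 bases. In day 12 replicate 1 the difference between these ranges was smaller, with medians of 0.16 and -0.01 against 0.24 and -0.18 in replicate 2. Their part in the gene lists was not tested one by one; with the median deviation taken out in 20 bins of GC content or of length, Otx2, Spry4, T and Fgf8 kept their calls, while 18 named genes lost theirs with GC content taken out and 1 with length. Pou5f1 (adjusted p = 0.177), Tcl1 (0.0757), Lefty1 (0.161), Crabp1 (0.102), Dhrs3 (0.0594), Phlda3 (0.111), Rhoc (0.109), Mbd2 (0.159) and Akt1 (0.145) were among the 18. Chromosome 11 had the highest median among autosomes, 0.13, with 13.6% of 976 kept protein-coding genes higher, against 8.58% of all such genes. Chromosomes 7, 15 and 17 had a higher median GC content than chromosome 11, and their median differences were 0.098, 0.07 and 0.117. The part of GC content in the medians of chromosomes was not tested.

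**Figure D4:**
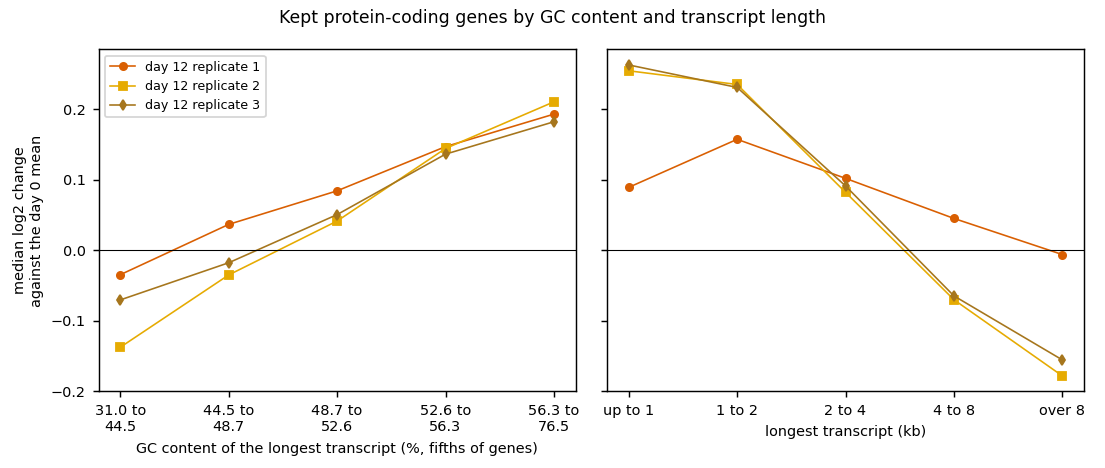
Median log2 difference from the day 0 mean (y axes) in each of the 3 day 12 libraries (joined points), over 5 equal classes of GC content (left) and 5 ranges of transcript length (right) of kept protein-coding genes. The medians climb with GC content and, from 1000 bases up, drop with length, with replicate 1 flatter over length than replicates 2 and 3.

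By gene class, 968 of the 11286 kept protein-coding genes were higher (8.58%) and 253 lower (2.24%). Of 1068 kept long non-coding RNA genes, 33 were higher (3.09%) and 22 lower (2.06%). Of 887 processed pseudogenes, which were left out of the genes described, 431 were higher (48.6%). Small RNA genes are a caution on the unit. FPKM divides by a very small length where the annotated transcript is shorter than the 100-base reads. Gm24270, annotated as a microRNA of 57 bases, was listed at 309.6, 447 and 253 FPKM at day 0 and 3379, 2967 and 2968 FPKM at day 12, and Gm22249, a small nuclear RNA, at 1.1, 1.3 and 2.19 FPKM at day 0 and at 0 in all 3 day 12 libraries.

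The same labelled days were also compared in the fractions, which share no library with the whole cells. Over 17609 genes tested in all 27 libraries, the whole cell difference between day 12 and day 0 was unlike that of the cytoplasm for 5746 genes (32.6%) and unlike that of the nucleus for 6421 (36.5%). In the cytoplasm alone 17.8% of genes were higher at day 12 and 19.1% lower. Fgf8 rose in whole cells but was lower by 0.97 in the cytoplasm, at 1.47 ± 0.444 and 0.52 ± 0.33 FPKM (mean ± SD, n = 3). That cytoplasmic difference was not called (limma adjusted p = 0.0766), while in the nucleus Fgf8 fell by 1.88 (0.00121). Spry4 rose by 1.73 in the cytoplasm, from 8.05 ± 0.242 to 27.9 ± 0.0934 FPKM, while it fell in whole cells. Across the 15991 genes, a description over genes within pairs of libraries that differ in depth, the day 12 whole cell libraries correlated at 0.962 to 0.973 with the day 0 cytoplasm libraries, at 0.951 to 0.972 with the whole cell libraries of day 4, at 0.951 to 0.960 with those of day 8, at 0.933 to 0.942 with those of day 10, at 0.938 to 0.946 with the day 0 whole cell libraries and at 0.915 to 0.927 with the day 12 cytoplasm libraries (Pearson's r of log2(FPKM + 0.5)).

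**Figure D5:**
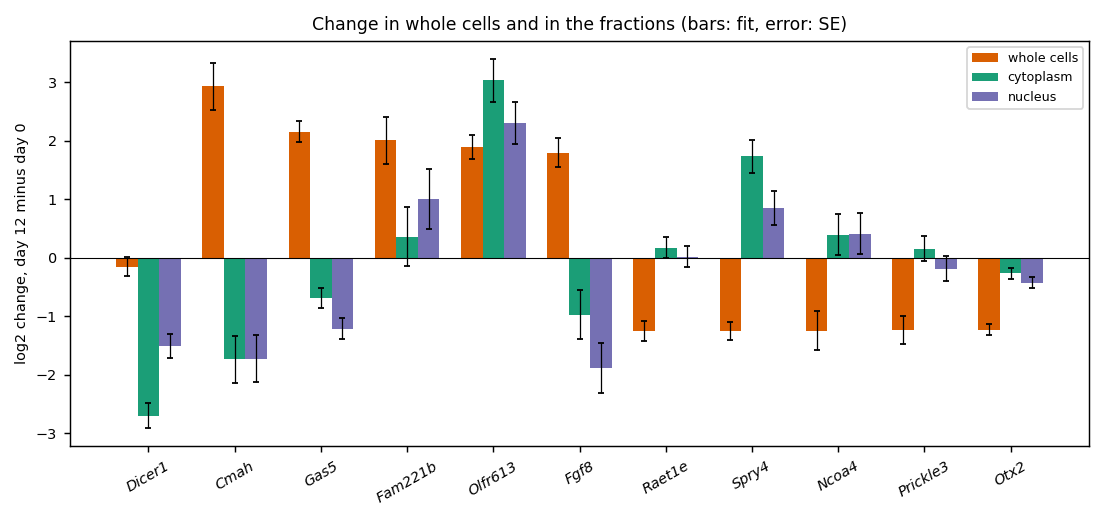
Log2 difference between days 12 and 0 (y axis) in whole cells, cytoplasm and nucleus (bars) for Dicer1 and the 5 largest named rises and falls (x axis), with error bars of 1 SE. Whole cell bars come from the fit over 15 whole cell libraries and fraction bars from the fit over 27 libraries. The whole cell bar of Dicer1 lies near 0 while those of both fractions reach well below it, and Spry4 and Fgf8 point opposite ways in whole cells and cytoplasm. The cytoplasmic difference of Fgf8 was not called.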

How the data were processed

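PolyA-selected, directional 100-base paired-end libraries from 27 samples were deposited by the authors as 1 table of FPKM per sample, made with TopHat2 2.0.9, Cufflinks 1.3.0 and the build mm9, per the submitters' processing notes; the sources used here do not give how reads that map to several places were shared out. These values are not counts and depth is not stated, so relative depth was read from the spacing of low values. Tables were joined by gene name after writing LINC and linc alike, and groups came from the labels.

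The main fit (limma 3.58.1 in R 4.3.3, eBayes with trend, two-sided) used log2(FPKM + 0.5) of the 15 whole cell libraries with 1 mean per day, for the 15991 genes that averaged 0.5 FPKM or more on 1 day. The adjusted p is Benjamini-Hochberg over all genes tested, with a threshold of 0.05. A second fit over 27 libraries tested whole cell against fraction differences. Fold changes of low genes are understated by the pseudocount.

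A gene was left out of the genes described where it is a pseudogene, belongs by name to the ribosomal protein, histone or tubulin families, or its longest GENCODE M21 transcript matches another gene over at least 50% of its length at 90% identity (minimap2 2.31), and, as added after values were seen, where another gene matches at least 100 bases in the reverse sense or no transcript could be checked (409 genes). Pairs of genes that overlap in position were not checked against each other. Coordinates are GRCm38, and all numbers come from the files as deposited.

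Named genes were the 15 largest rises and 15 largest falls with at least 2 FPKM in 1 group and no overlap, up to 4 called members of each of 48 gene lists, and a short fixed set (Dicer1, core and nuclear RNA genes among them); some named genes are not reported here. The comparison, its members and the lists were chosen with earlier results of these data known, so counts of a list are a description beside those of all genes. Alternatives covered the pseudocount, the filter, scaling, the samples in the fit, a block by replicate number, the spread, the genes tested and each library left out; GC and length bins were added after seeing the data. The fit was tested on simulated data.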

Additional observations from a re-analysis of the deposited data

Results flagged for a closer look

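For Dicer1 and the first 5 rises and falls, the whole cell difference between days 12 and 0 was set against the same difference in the cytoplasm and in the nucleus, by a limma test of the gap itself over 27 libraries. In 9 of these 11 genes both gaps passed the threshold, and these are the results marked for a closer look; Fam221b and Olfr613 passed in neither. The 5 rises and 5 falls were chosen for their whole cell difference, which is part of each gap, so this count is a description; over all genes tested the gaps passed for 32.6% with the cytoplasm and 36.5% with the nucleus. Gaps are whole cell minus fraction on the log2 scale.

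Dicer1, the targeted gene, had gaps of 2.54 against the cytoplasm and 1.35 against the nucleus. The streak growth factor Fgf8 had gaps of 2.76 and 3.68, the sialic acid enzyme gene Cmah of 4.67 and 4.65 and the small nucleolar RNA host Gas5 of 2.83 and 3.36, in the same order. Among the falls, the Erk feedback gene Spry4 had gaps of -2.98 and -2.11, Raet1e of -1.42 and -1.27, Ncoa4 of -1.64 and -1.66, Prickle3 of -1.39 and -1.05 and Otx2 of -0.96 and -0.80. Both fractions had Dicer1 lower at day 12, and the whole cells did not. Dicer1 and these genes thus moved unlike in libraries that carry the same label, and whether the 2 go together was not tested. Each gap also holds the day 0 libraries. At day 0, Prickle3 was at 14.2 FPKM in whole cells against 5.6 in the nucleus and 3.51 in the cytoplasm. Cmah was at 0.0771 against 21.2 and 13.3 FPKM, and Otx2 at 12.4 against 5.09 and 5.03 FPKM. Otx2 also fell in the fractions, with differences of -0.43 in the nucleus and -0.26 in the cytoplasm. Fgf8 was apart at day 12 too, at 2.88 FPKM in whole cells against 0.164 and 0.52 FPKM.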

How the results depend on the processing

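Dicer1 kept its sign and stayed uncalled in every alternative run, between -0.25 and -0.09 with 1 library left out, and the counts of genes whose whole cell difference departs from the fractions stayed within 1.5 times in the 3 alternatives run for them (pseudocounts of 0.1 and 1 and quantile normalization). The counts of calls did not. With 1 of the 6 libraries left out, all genes called ran from 1056 to 1662, higher from 815 to 1268, lower from 241 to 406, kept higher from 377 to 733 and kept lower from 83 to 203, each lowest without day 0 replicate 2. With median-of-ratios scaling 898 genes were lower, and among those kept 597 were higher and 584 lower. With quantile normalization 1086 were higher and 1302 lower, and among those kept 520 and 887. A fit of days 0 and 12 alone gave 3520 calls with 1080 lower, and 1637 higher and 727 lower among those kept. Testing protein-coding and long non-coding genes alone gave 1059 higher, since fewer genes were tested, and taking out length bins left 436 kept genes lower. Beyond these, the cause was not tested. Of 110 named genes called, all kept their sign in every alternative, 81 kept the call under both other scalings, 58 with each library left out and 47 in all.

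How the replicate numbers relate the samples is not given. Deviations of same-numbered day 0 and day 12 libraries correlated at -0.13, 0.00062 and -0.10, and day 12 replicate 1 correlated best with day 0 replicate 3 (0.10). Deviations from a mean of 3 libraries are tied to each other, so these values cannot decide whether same-numbered samples are paired. A replicate block in a fit of both days gave 1153 calls, 884 higher and 269 lower, and among genes kept 341 and 110.

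Depth is not stated, and by the spacing of low values the day 12 libraries are the shallower group, so genes near the floor of 0.5 FPKM rest on few fragments.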
